A study of Mus musculus with 8 samples.

Results

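The 6 genes described here lie on mouse chromosome 11 and are 6 of 32285 genes in the deposited count table. Within 1.2 Mb of Cnp, 139 genes of the table start. The 6 are Cnp, the gene inactivated in the mutant mice of this study, its close neighbours Dnajc7 and Nkiras2, and 3 genes that lie more than 1.1 Mb away, Krt12, Krt20 and A830036E02Rik. The members were named with measured values in view, because they lie at or within about 1.2 Mb of the targeted gene and were of interest for their counts with and without Cnp. What follows on their change with Cnp loss is therefore a description without a test, and tests are given only for the 5xFAD transgenes, for the interaction and for other genes.

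Single nuclei came from hemispheres of the brain, with olfactory bulb and cerebellum removed, of mice aged 6 months on a C57BL/6 background (strain C57BL6/J in the labels), and the animals of Cnp crossbreedings were females. The 4 groups, of 2 libraries each, were WT mice, Cnp-/- mice, 5xFAD mice and Cnp-/- 5xFAD mice, which carry both alterations. 5xFAD mice express human transgenes with familial Alzheimer's disease mutations from the Thy1 promoter, which is active in neurons, and form amyloid plaques. Cnp-/- mice carry a germline inactivation of Cnp, so that no cell type is spared. WT and 5xFAD libraries (n = 4) are called Cnp-intact below, and Cnp-/- and Cnp-/- 5xFAD libraries (n = 4) Cnp-deficient. According to the reporting summary, single-cell replicates pooled 2 animals each, whereas the protocol text names pooling for another dataset only. The p-values measure the spread between these libraries. Which part of Cnp the mutant allele alters is not given in the sources used here, and whether the 3′ reads counted for Cnp lie inside the altered part cannot be told.

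CNP is an enzyme of the oligodendrocyte cytoplasm that keeps cytoplasmic channels open within the myelin sheath, and its gene is a classic marker of the oligodendrocyte lineage. Dnajc7 encodes a co-chaperone that binds both HSP70 and HSP90, and Nkiras2 encodes a Ras-like protein that binds inhibitors of NF-kB. Krt12 and Krt20 encode type I keratins, known from the corneal epithelium and the intestinal epithelium respectively, and A830036E02Rik is a long non-coding RNA gene that the annotation classes as antisense.

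On the GRCm38 build, Cnp lies on the plus strand at chr11:100574904-100591729. The Dnajc7 gene, on the minus strand at chr11:100582818-100620168, overlaps 8.912 kb of the Cnp gene, with 154 bp of overlapping exon. Nkiras2, on the plus strand at chr11:100619244-100627607, overlaps the first 0.925 kb of Dnajc7. The other 3 genes lie together within 22.485 kb that hold no further gene of the table. Krt12 (minus strand, chr11:99415666-99422259) and A830036E02Rik (plus strand, chr11:99416956-99425497) share 5.304 kb on opposite strands, of which 1007 bp are exonic in both, and Krt20 (minus strand, chr11:99428403-99438150) follows after a gap of 2.905 kb. Whether the counting used the strand of the reads is not given in the sources used here. If it did not, reads from the overlapping stretches could not be assigned to 1 of the partners.

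The sequences around the annotated starts are shown for Cnp and for the 3 genes whose counts were lower together. Each runs from 250 bases before the RefSeq start to 50 bases after it (GRCm38.p6), 5′ to 3′ on the strand of the gene. Capitals mark the hexamer TATAAA and the hexamer GGGCGG with its reverse complement CCGCCC, and TTTATA, the reverse complement of the first, was also searched.
Krt12, minus strand, chr11:99422210-99422509: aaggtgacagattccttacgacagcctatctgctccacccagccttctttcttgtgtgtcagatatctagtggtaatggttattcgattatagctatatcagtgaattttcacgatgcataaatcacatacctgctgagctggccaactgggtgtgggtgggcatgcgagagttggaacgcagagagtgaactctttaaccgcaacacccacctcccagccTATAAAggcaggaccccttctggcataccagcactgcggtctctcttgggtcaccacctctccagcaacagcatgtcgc
A830036E02Rik, plus strand, chr11:99416993-99417292: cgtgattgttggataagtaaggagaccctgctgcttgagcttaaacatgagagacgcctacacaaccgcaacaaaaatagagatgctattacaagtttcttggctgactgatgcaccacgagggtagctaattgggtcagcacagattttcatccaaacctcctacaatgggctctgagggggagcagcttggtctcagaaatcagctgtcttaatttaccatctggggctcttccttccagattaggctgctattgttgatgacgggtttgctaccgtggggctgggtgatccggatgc
Krt20, minus strand, chr11:99438104-99438403: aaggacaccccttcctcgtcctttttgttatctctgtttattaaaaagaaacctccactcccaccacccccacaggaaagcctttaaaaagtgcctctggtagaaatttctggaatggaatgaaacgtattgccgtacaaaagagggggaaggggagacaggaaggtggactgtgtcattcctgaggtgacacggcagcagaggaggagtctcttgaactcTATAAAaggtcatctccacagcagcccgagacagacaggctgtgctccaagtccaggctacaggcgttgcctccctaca
Cnp, plus strand, chr11:100574689-100574988: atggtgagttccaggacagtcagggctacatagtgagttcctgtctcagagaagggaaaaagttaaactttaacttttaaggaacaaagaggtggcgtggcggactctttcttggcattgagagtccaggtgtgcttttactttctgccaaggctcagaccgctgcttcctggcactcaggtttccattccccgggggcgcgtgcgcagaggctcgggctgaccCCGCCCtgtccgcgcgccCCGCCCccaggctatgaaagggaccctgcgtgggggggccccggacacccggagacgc
Both keratin sequences hold TATAAA once, beginning at position -29 when the first transcribed base is counted as 0, and the A830036E02Rik sequence holds neither hexamer on either strand. That A830036E02Rik window lies wholly inside the gene as placed above, which begins at chr11:99416956. The sequence before that start was not searched. TATAAA or its reverse complement is present in 13.6% of all 32851 sequences of this kind in RefSeq, and on the sense strand in 8.32%. The Cnp sequence holds CCGCCC in 2 places, and 35.7% of all sequences hold that hexamer on either strand. G and C made up 50.3% of the Krt12 window, 50.0% of the Krt20 window, 48.7% of the A830036E02Rik window and 59.7% of the Cnp window.

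The table held 61949 nuclei with a median of 6811 UMIs (unique molecular identifiers, 1 per captured transcript), and 6801 to 8824 nuclei with 68905044 to 82399061 UMIs per library. Pairs of libraries shared 9 to 28 cell barcodes. The authors' labels divide the nuclei into neurons (45141), mature oligodendrocytes (MOL, 5612), astrocytes (4810), microglia (2472), endothelial cells (1667), oligodendrocyte precursors (OPC, 1522), newly formed oligodendrocytes (NFOL, 465) and pericytes (260). Each class had its listed markers at their highest level, apart from Gpr17 of NFOL, Cspg4 of OPC and Rgs5 of pericytes, which were higher in OPC, pericytes and endothelial cells respectively. Levels are given as CPM, the UMIs of a gene scaled to 1e+06 UMIs of the summed nuclei of a class in a library. They are not divided by gene length, so that levels are compared between classes and genotypes and not between genes.

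In mature oligodendrocytes, where Cnp was highest, the Cnp-deficient libraries kept 9.47% of the mean Cnp level. WT replicates 1 and 2 held 283 and 321 CPM (328 and 304 UMIs), and 5xFAD replicates 1 and 2 held 219 and 265 CPM (395 and 237 UMIs). Cnp-/- replicates 1 and 2 held 23.1 and 23.2 CPM (38 and 19 UMIs), and Cnp-/- 5xFAD replicates 1 and 2 held 24.0 and 32.8 CPM (29 and 32 UMIs). Every Cnp-deficient library was thus far below every Cnp-intact one, and none was at 0. The mean was 272 ± 42.4 CPM in Cnp-intact libraries (SD, n = 4) and 25.8 ± 4.72 CPM in Cnp-deficient ones (SD, n = 4), a 10.6-fold difference. The fitted log2 fold change was -3.32 (SE 0.17). It was -3.63 (SE 0.24) for Cnp-/- against WT and -3.02 (SE 0.24) for Cnp-/- 5xFAD against 5xFAD.

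**Figure D1:**
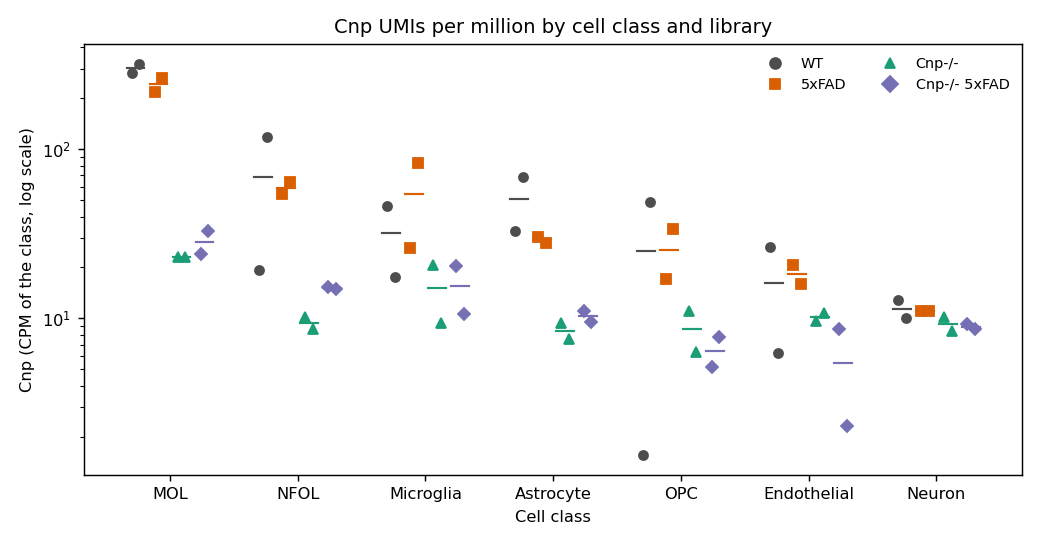
Cnp level in 7 cell classes. The vertical axis is CPM of the class on a log scale, each symbol is 1 library (2 per genotype) and each short line is the genotype mean. In MOL all 4 Cnp-deficient libraries sit between 23.1 and 32.8 CPM, below the 4 intact ones at 219 to 321 CPM, whereas the 8 neuron values lie between 8.37 and 12.9 CPM.

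Newly formed oligodendrocytes and astrocytes showed the same separation at lower levels. In NFOL, WT libraries held 19.3 and 118 CPM and 5xFAD libraries 54.0 and 64.3 CPM, against 10.1 and 8.62 CPM in Cnp-/- and 15.3 and 14.9 CPM in Cnp-/- 5xFAD libraries. These rested on 80 UMIs in Cnp-intact and 16 UMIs in Cnp-deficient libraries, and the lowest intact library, WT replicate 1, was close to the deficient ones with 5 UMIs. The fitted log2 fold change in NFOL was -2.26 (SE 0.51), and -1.45 without WT replicate 2, the library at 118 CPM. In astrocytes, WT libraries held 33.0 and 68.4 CPM and 5xFAD libraries 30.2 and 27.9 CPM, against 9.35 and 7.55 CPM in Cnp-/- and 10.98 and 9.56 CPM in Cnp-/- 5xFAD libraries. Astrocytes, which do not form myelin, thereby kept 23.5% of their intact Cnp mean, with no overlap between the groups.

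In the other classes the libraries overlapped. Microglia held 43.2 ± 29.4 CPM with Cnp intact and 15.3 ± 6.09 CPM without (SD, n = 4 each). OPC held 25.3 ± 20.4 and 7.56 ± 2.56 CPM, where a single intact library, WT replicate 1 with 1.55 CPM, lay below all deficient ones. The fitted log2 fold change in OPC was -1.60 (SE 0.79) and turned to 0.23 without WT replicate 2. Endothelial cells held 17.3 ± 8.53 and 7.82 ± 3.77 CPM. These 3 classes had between 57 and 96 Cnp UMIs in all intact libraries together and between 17 and 40 in all deficient ones. Pericytes had 3 UMIs with Cnp intact and 0 among 116 nuclei without, which allows up to 19.8 CPM.

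Summed over the class, neurons differed from the glial classes in how little their Cnp count moved. For WT replicate 2 this sum rested mostly on 1 of the authors' clusters of neurons, as given below. That cluster, number 25, held 529 Cnp UMIs in WT replicate 2, and it had 837 intact but only 27 deficient nuclei. The class values depend on it, and its part in the small difference between the groups was not tested. The intact libraries held 12.9, 9.99, 11.1 and 11.1 CPM (WT replicates 1 and 2, then 5xFAD replicates 1 and 2), and the deficient ones 10.2, 8.37, 9.28 and 8.60 CPM (Cnp-/- replicates 1 and 2, then Cnp-/- 5xFAD replicates 1 and 2). Of the deficient libraries 1 lay above 1 intact library, and the deficient mean was 80.9% of the intact one. With 3090 UMIs in intact and 2633 UMIs in deficient neurons, this is the class with the most Cnp counts, and the fitted log2 fold change was -0.24 (SE 0.12). Neurons supplied 2633 of the 2914 Cnp UMIs that were left in all deficient nuclei together. They also supplied 2.88e+08 of the 3.09e+08 UMIs of all genes in these nuclei. Their pooled Cnp level, 9.14 CPM, was thus close to the 9.43 CPM of all deficient nuclei pooled. Over all nuclei, Cnp was therefore at 16.7 ± 1.16 CPM with and 9.39 ± 0.872 CPM without an intact gene (SD, n = 4 each), or 56.3% of the intact mean.

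In the order of the classes, MOL was first with and without Cnp, and the order of most other classes was not resolved. With Cnp intact, the mean level ran from MOL through NFOL, microglia, astrocytes, OPC, endothelial cells and neurons to pericytes, and only the step from MOL to NFOL was larger than the spread of both classes and without overlap. From NFOL down, each class overlapped its neighbour in this order. Without Cnp, MOL was still first, at 25.8 CPM, ahead of microglia (15.3 CPM) with no overlap. NFOL, astrocytes, neurons, endothelial cells and OPC then lay between 12.2 and 7.56 CPM, and the libraries of each overlapped those of the next.

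Counted per nucleus, at least 1 Cnp UMI was seen in 34.4% of intact MOL (95% exact binomial interval 32.6 to 36.3%) and in 3.76% of deficient MOL (3.11 to 4.51%). In neurons, which form no myelin, the shares were 11.3% and 9.92%. Median depth differed between these classes, with 1108 to 2020 UMIs per MOL nucleus and 6474 to 11309 UMIs per neuron in the libraries. After thinning of every nucleus to 1000 UMIs, the share in MOL was 19.6 to 25.7% in intact and 2.06 to 3.15% in deficient libraries, and in neurons 0.886 to 1.33% and 0.804 to 1.05%. Between 40 and 257 MOL nuclei per library were too shallow for thinning. At matched depth the deficient MOL thus stayed above the neurons. All intervals cover counting error only.

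Within microglia, most Cnp counts of intact libraries sat in the nuclei that the authors labelled as enriched in myelin transcripts (MyTE). The 91 intact MyTE nuclei held 50 Cnp UMIs, or 164 CPM, and 41.8% of them had at least 1. In the 179 deficient MyTE nuclei there were 11 UMIs, or 19.5 CPM, and 5.59% had at least 1. Homeostatic microglia had 24.1 CPM with 17 UMIs in intact and 13.2 CPM with 7 UMIs in deficient libraries. These values pool libraries and carry no replicate error. The authors had removed ambient transcripts, that is free RNA, from the counts with CellBender. The part of any remaining free RNA in the Cnp counts of classes other than oligodendrocytes was not tested.

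Of 19 other genes of myelin and its formation, none was called lower with Cnp loss in any class. In neurons, MOL, astrocytes, OPC and endothelial cells, 12 to 19 of them could be tested and 0 were called by the edgeR quasi-likelihood fit (Benjamini-Hochberg adjusted p under 0.05), with 2 called by DESeq2. Over all genes DESeq2 also called more than edgeR in neurons and MOL, as given at the end. At an unadjusted p under 0.05 there were 6 of 19 in MOL (12.01% of all genes), 3 of 14 in astrocytes (5.43%), 2 of 12 in OPC (4.24%), 2 of 19 in neurons (8.14%) and 0 of 15 in endothelial cells (8.04%). In MOL their median log2 fold change was 0.11 beside -0.03 over all 8761 genes tested, of which 0.765% were called. In NFOL 6 of 18 tested rose, among them Mbp, a structural protein of compact myelin (log2 fold change 1.18, SE 0.21), and Opalin (1.24, SE 0.24), with a median of 0.91 beside 0.01 over all genes, where 1.6% of genes were called. In microglia 6 of 18 rose, among them Aspa, which cleaves N-acetylaspartate (1.44, SE 0.18), and Mog, a protein of the outer myelin surface (1.27, SE 0.23), with a median of 1.12 beside 0.01 and 0.904% of all genes called. The make-up of this class differed between genotypes, with 91 nuclei labelled MyTE in intact and 179 in deficient libraries and 13 and 235 labelled Myelin_DAM, and the part of this shift in the class values was not tested. The NFOL count was 0 without Cnp-/- replicate 1, 1 without WT replicate 1 and 14 without WT replicate 2. The microglial count was 0 without Cnp-/- replicate 1, without either 5xFAD library or without Cnp-/- 5xFAD replicate 2, 2 without Cnp-/- 5xFAD replicate 1, 3 without WT replicate 2 and 10 without Cnp-/- replicate 2.

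Dnajc7, whose gene body overlaps that of Cnp, was counted in all classes, with libraries that overlapped between Cnp-intact and Cnp-deficient mice. In neurons WT libraries held 114 and 101 CPM, 5xFAD libraries 115 and 109 CPM, Cnp-/- libraries 103 and 106 CPM and Cnp-/- 5xFAD libraries 108 and 97.8 CPM. The 4 genotypes interleaved, and the fitted log2 fold change with Cnp loss was -0.02 (SE 0.07). In MOL the intact libraries held 189 ± 24.1 CPM and the deficient ones 171 ± 22.8 CPM (SD, n = 4 each), with a log2 fold change of -0.07 (SE 0.13). Where Cnp lost most of its counts, its overlapping neighbour thus stayed within its spread. Microglia had the highest Dnajc7 level, 240 ± 20.0 CPM with and 242 ± 20.2 CPM without Cnp, and with Cnp intact it did not overlap MOL, the next class. Neurons had the lowest mean, 110 ± 6.69 and 103 ± 4.23 CPM, and overlapped OPC with Cnp intact.

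In the 7 classes fitted, the Dnajc7 libraries with and without Cnp overlapped, and its log2 fold changes lay between -0.08 in astrocytes and 0.32 in NFOL. None of 28 chaperones and co-chaperones around DNAJC7, such as HSP70 and HSP90 genes, was called with Cnp loss in any class by edgeR (adjusted p under 0.05), of which 19 to 27 passed the filter on low counts in each class. In MOL 6 of 22 tested had an unadjusted p under 0.05, against 12.01% of all genes, with a median log2 fold change of -0.58 beside -0.03 over all genes. DESeq2 called 5 over all classes, and over all genes it also called more than edgeR in neurons and MOL, as given at the end.

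Nkiras2 was low everywhere. In neurons, WT libraries held 3.01 and 4.52 CPM, 5xFAD libraries 3.79 and 4.97 CPM, Cnp-/- libraries 3.57 and 3.74 CPM and Cnp-/- 5xFAD libraries 3.21 and 3.92 CPM, with a fitted log2 fold change of -0.10 (SE 0.17). Microglia (13.6 ± 8.88 CPM) and endothelial cells (11.5 ± 2.73 CPM) had the highest means in intact libraries (SD, n = 4), and each class overlapped the next in the order of levels. Single libraries of microglia held 1 to 16 Nkiras2 UMIs. In MOL, with 26 UMIs in intact and 25 UMIs in deficient libraries, the fitted log2 fold change of 0.52 (SE 1.49) turned to -2.38 without Cnp-/- replicate 2 and was 3.17 without 5xFAD replicate 1. Of 20 NF-kB pathway genes around NKIRAS2, none was called with Cnp loss in any class (edgeR, adjusted p under 0.05). An unadjusted p under 0.05 was seen for 3 of 17 tested in astrocytes (5.43% of all genes) and 2 of 10 in OPC (4.24%). It was seen for 1 of 20 in neurons (8.14%), 1 of 16 in MOL (12.01%) and 1 of 15 in microglia (11.8%). In NFOL it was 0 of 11 (13.4%) and in endothelial cells 0 of 19 (8.04%). DESeq2, whose larger counts over all genes in neurons and MOL are given at the end, called 1 over all classes.

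The 3 distant genes had their highest mean levels in neurons with intact Cnp, followed by endothelial cells. A830036E02Rik, the antisense RNA gene, had 89.3 and 59.1 CPM in WT neurons (6403 and 4171 UMIs) and 57.2 and 66.4 CPM in 5xFAD neurons (3778 and 4370 UMIs). Neurons of Cnp-/- libraries had 0.713 and 0.436 CPM (55 and 28 UMIs), and those of Cnp-/- 5xFAD libraries 0.651 and 0.751 CPM (47 and 56 UMIs). The lowest intact library was thus at 57.2 CPM and the highest deficient one at 0.751 CPM. Means were 68.0 ± 14.8 CPM and 0.638 ± 0.141 CPM (SD, n = 4 each), a 107-fold difference, and the fitted log2 fold change was -6.66 (SE 0.22).

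Krt12, on the opposite strand, had 37.1 and 22.8 CPM in WT neurons (2656 and 1607 UMIs) and 28.7 and 39.3 CPM in 5xFAD neurons (1898 and 2587 UMIs). It had 2.22 and 1.87 CPM in Cnp-/- neurons (171 and 120 UMIs) and 1.81 and 3.00 CPM in Cnp-/- 5xFAD neurons (131 and 224 UMIs). The groups again lay far apart, with means of 32.0 ± 7.63 and 2.23 ± 0.548 CPM (SD, n = 4 each), a 14.4-fold difference, and a fitted log2 fold change of -3.78 (SE 0.25).

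Krt20, the other keratin gene, had 3.93 and 3.00 CPM in WT neurons (282 and 212 UMIs), 2.77 and 3.49 CPM in 5xFAD neurons (183 and 230 UMIs), 0.143 and 0.171 CPM in Cnp-/- neurons (11 UMIs each) and 0.180 and 0.148 CPM in Cnp-/- 5xFAD neurons (13 and 11 UMIs). Means were 3.30 ± 0.519 and 0.160 ± 0.018 CPM (SD, n = 4 each), a 20.6-fold difference without overlap, and the fitted log2 fold change was -4.28 (SE 0.21).

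**Figure D2:**
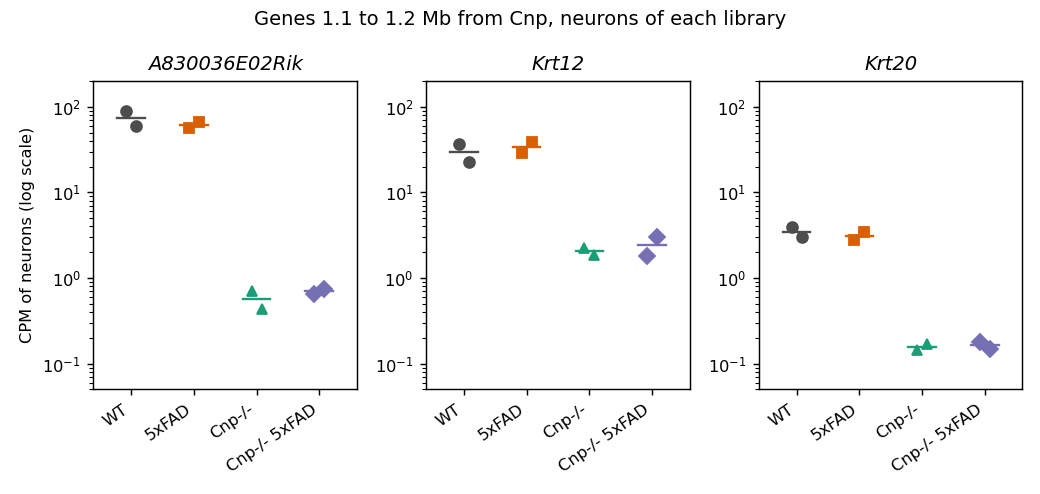
CPM of neurons on a log scale for A830036E02Rik, Krt12 and Krt20. Each symbol is 1 library and each line a genotype mean. For each gene, the 4 WT and 5xFAD libraries lie above the 4 Cnp-/- and Cnp-/- 5xFAD libraries, with gaps of 57.2 to 0.751 CPM, 22.8 to 3.00 CPM and 2.77 to 0.180 CPM.

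The size of the difference was similar on both amyloid backgrounds. For A830036E02Rik the log2 fold change was -6.93 (SE 0.31) for Cnp-/- against WT and -6.38 (SE 0.31) for Cnp-/- 5xFAD against 5xFAD, for Krt12 -3.81 (SE 0.35) and -3.74 (SE 0.35), and for Krt20 -4.40 (SE 0.30) and -4.17 (SE 0.29). A830036E02Rik was lower by more than Krt12 and Krt20. Krt12 had 0.385 to 0.592 UMIs per A830036E02Rik UMI in intact libraries and 2.79 to 4.29 in deficient ones, without overlap. For Krt20 the same ratio was 0.0440 to 0.0526 and 0.196 to 0.393. Krt12 UMIs per Krt20 UMI were 7.58 to 11.2 in intact and 10.1 to 20.4 in deficient libraries, which overlapped. The 6 genes were chosen on this contrast, so their fold changes are a description. All deficient libraries carry the mutant Cnp allele, so that the loss of CNP cannot be told apart here from other effects of carrying that allele. Whether the lower counts of these 3 genes follow from the loss of CNP was not tested. With the 6 included, edgeR called lower with Cnp loss (adjusted p under 0.05) 0.0139% of the 21584 genes tested in neurons, 0.0136% over all nuclei, 0.32% in MOL, 0.8% in NFOL, 0.052% in microglia, 0.0425% in endothelial cells and 0% in astrocytes and OPC. The shares in neurons and over all nuclei are made up of A830036E02Rik, Krt12 and Krt20 themselves and are no background for them, and those in MOL and NFOL include Cnp. Among the other genes, 0% of 21578 were called lower in neurons, 0% over all nuclei, 0.308% in MOL and 0.787% in NFOL. Adap1 of chromosome 5, the gene called higher in neurons and named after its values were seen, was at 82.1 CPM in intact and 142 CPM in deficient libraries.

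Per nucleus, 38.2% of intact neurons had an A830036E02Rik UMI (exact interval 37.6 to 38.9%) and 0.750% of deficient ones (0.644 to 0.868%). For Krt12 the shares were 24.8% and 2.42%, and for Krt20 3.93% and 0.193%. After thinning to 1000 UMIs per nucleus, A830036E02Rik was seen in 5.16 to 9.75% of neurons in the intact libraries and in 0.0339 to 0.0853% in the deficient ones. For comparison with a class outside the neurons, among 2662 intact MOL, whose smaller median depth is given above, 3 nuclei (0.113%) had an A830036E02Rik UMI and 0 a Krt12 UMI, which allows a Krt12 level of up to 0.625 CPM.

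Beyond neurons, counts were few. In intact endothelial cells the mean level was 8.73 ± 7.62 CPM for A830036E02Rik, 5.88 ± 4.93 CPM for Krt12 and 1.11 ± 1.67 CPM for Krt20 (SD, n = 4 each). The highest endothelial library lay below the lowest library of neurons for the first 2 genes (19.99 CPM and 10.9 CPM), but not for Krt20 (3.53 CPM). The Krt20 level rested on 5 UMIs, of which 4 came from that 1 library, of the 5xFAD group. Endothelial nuclei held 37 A830036E02Rik UMIs and 26 Krt12 UMIs in intact libraries, of which 22 and 12 came from WT replicate 1, and 1 and 0 UMIs in deficient libraries, where a Krt12 count of 0 allows 0.643 CPM. Their nuclei with a Krt12 UMI were 13 of 716. In each of the other classes every member of the trio had at most 3 UMIs with and at most 3 without Cnp. Only in neurons and in the sum of all nuclei did the trio pass the filter on low counts, whereas Nkiras2 passed in 5 classes and Cnp and Dnajc7 in 7 of the 7 fitted.

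The trio was not even over neurons. The authors' clustering splits the neurons into 25 numbered clusters, and in intact libraries pooled A830036E02Rik ranged from 3.29 CPM in cluster 8 to 225 CPM in cluster 5. Single intact libraries ran from 189 to 264 CPM in cluster 5 and from 0.932 to 12.3 CPM in cluster 8, where WT replicate 1 held 23 of 34 UMIs and the pooled level without it was 1.299 CPM. Cluster 5 expressed Slc17a7, the vesicular glutamate transporter of many cortical and hippocampal neurons, at 229.9 CPM, and held 4.97% of intact neurons but 13.0% of their A830036E02Rik UMIs. Cluster 13, which expressed Gad1, an enzyme that makes GABA, at 281 CPM, held 83.0 CPM of A830036E02Rik, but 614 of its 822 intact nuclei came from WT replicate 1 (95.7 CPM), and the level without that library was 38.4 CPM. Cluster 15 (Slc17a7 276 CPM) held 10.5 CPM, with 6.95 to 17.9 CPM in single libraries. Cluster 18 (Gad1 425 CPM) held 15.4 CPM when pooled, but its libraries ran from 1.41 to 36.1 CPM, and the pooled level was 6.92 CPM without WT replicate 2 and 23.3 CPM without 5xFAD replicate 1. Cluster 7 (218 CPM, Gad1 792 CPM) was second highest when pooled, but 1164 of its 1211 intact nuclei came from WT replicate 1 and 1183 of its 1198 deficient nuclei from Cnp-/- replicate 2.

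The keratin genes followed the RNA gene over the clusters. Across the 25 clusters of intact libraries, log2 levels of A830036E02Rik correlated with those of Krt12 at a Pearson r of 0.953 and with those of Krt20 at 0.821, and Krt12 and Krt20 correlated at 0.83. These points share libraries and depth, and the values are descriptive. Within libraries, 43.1 to 51.2% of intact neurons with an A830036E02Rik UMI also had a Krt12 UMI, against 8.15 to 14.5% of those without. Krt20 was seen in 7.34 to 8.91% and 1.01 to 1.71% of the same nuclei. Neurons with an A830036E02Rik UMI were also deeper, with medians of 10175 to 14656 UMIs against 6816 to 9803 UMIs, and the part of depth in this co-detection was not tested.

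Pooled over libraries, A830036E02Rik and Krt12 had a lower CPM without Cnp in 25 of 25 clusters each. Krt20 was lower in 22, higher in 2 and at 0 in both groups in 1. The 2 were cluster 36 (4.72 CPM with 5 UMIs in intact, of which 4 came from WT replicate 1, and 9.20 CPM with 6 UMIs in deficient libraries) and cluster 25 (1.04 and 2.61 CPM), whose deficient value rests on 1 UMI. In 12 clusters every library had at least 20 nuclei, and there each deficient library lay below each intact one in 12 clusters for A830036E02Rik, in 11 for Krt12 and in 7 for Krt20. The clusters share the same libraries and the genes were chosen on this contrast, so these counts only describe the class difference. The share of all genes without such overlap was not computed. Pooled CPM in deficient libraries was highest in clusters 34 and 5 for A830036E02Rik and in clusters 5 and 34 for Krt12. Cluster 5 went from 225 to 2.84 CPM for A830036E02Rik and from 96.3 to 10.5 CPM for Krt12, and cluster 34 from 188 to 3.49 CPM and from 90.3 to 8.57 CPM. By UMIs, cluster 0, the one with the most nuclei, held the largest residual counts of a single cluster, 68 of 186 UMIs of A830036E02Rik and 244 of 646 UMIs of Krt12.

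**Figure D3:**
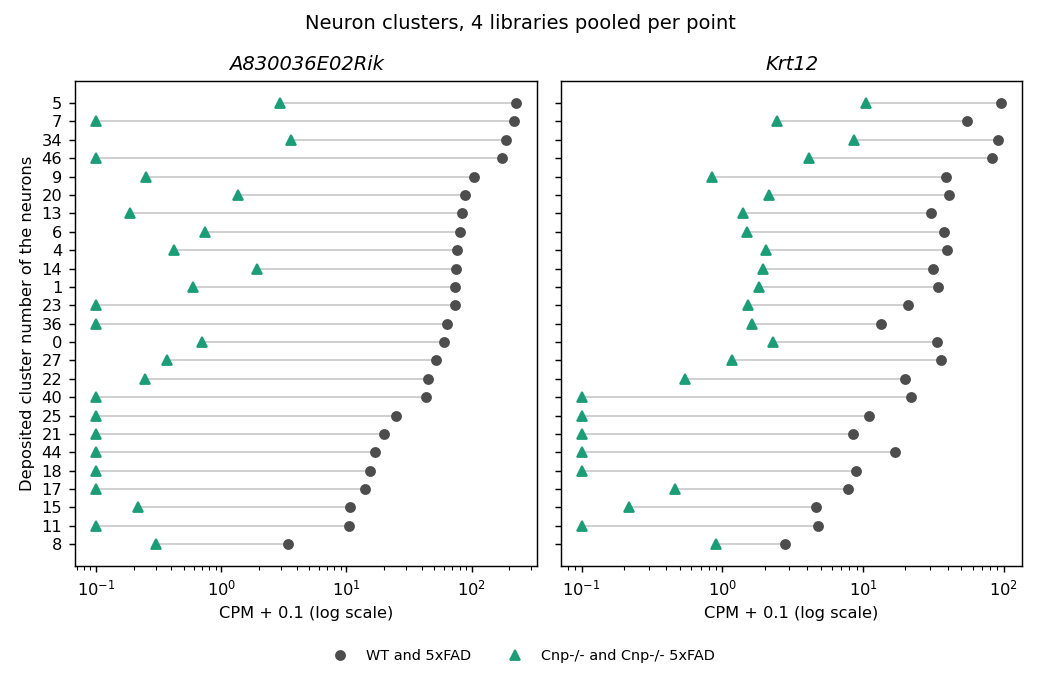
A830036E02Rik (left) and Krt12 (right) in the 25 neuron clusters, ordered by the intact level of A830036E02Rik. The horizontal axis is CPM plus 0.1 on a log scale, and each point pools 4 libraries, WT and 5xFAD as circles and Cnp-/- and Cnp-/- 5xFAD as triangles. In all 25 clusters the triangle lies left of the circle for both genes.

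Some clusters were unequally filled, for example cluster 25 with 837 intact and 27 deficient nuclei and cluster 11 with 1519 and 300. The part of these shares in the class sums was not tested, and the values above are within clusters. Cnp itself had a lower pooled CPM in 12 clusters and a higher one in 13, and of the 12 clusters filled in every library 1 showed no overlap. Its intact level ran from 2.97 CPM in cluster 5, where the deficient level was 8.80 CPM, to 45.0 CPM in cluster 25. The first was 1.90 CPM without WT replicate 1 and 4.47 CPM without WT replicate 2. Cluster 25 alone held 564 of the 3090 Cnp UMIs of intact neurons and took 717 of its 837 intact nuclei from WT replicate 2, without which it was at 26.3 CPM. In WT replicate 2, cluster 25 held 529 Cnp UMIs and cluster 0, with the next most, held 100. Clusters 1, 5, 15, 17 and 22 of that library, with 97 to 723 nuclei each, held 0. The Cnp level of WT replicate 2 neurons as a class thus rested mostly on cluster 25.

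Apart from Krt12 and Krt20, 51 genes of the table carry a keratin symbol, 42 of which had a UMI in neurons and 9 at least 100. Of the 13 that passed the filter in neurons, edgeR called 0 with Cnp loss (DESeq2 also 0). Of these 13, 2 had an unadjusted p under 0.05, beside 8.14% of all genes. Their median log2 fold change was -0.21 beside 0.00 over all genes tested. Krt222, the most abundant, had 7411 UMIs in intact and 8194 UMIs in deficient neurons. Krt10, the keratin gene nearest to the trio among those tested, had 4.05 CPM in intact and 2.74 CPM in deficient neurons, with overlapping libraries and a log2 fold change of -0.45 (SE 0.29). In astrocytes, named after its values were seen, Krt10 had 8.89 CPM in intact libraries (3.98 to 14.5) and 0.934 CPM in deficient ones (0 to 3.05), without overlap. Its edgeR adjusted p there was 0.798, whereas it was called without the filter on low counts (log2 fold change -3.34, SE 0.82, adjusted p 0.00539).

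To see whether the rest of the region moved, all genes that start within 1.2 Mb of Cnp were followed, 133 besides the 6 described. In neurons 60 of these could be tested and 0 were called with Cnp loss by edgeR (adjusted p under 0.05), beside 1 of the 21578 genes other than the 6. Of the 60, 7 (11.7%) had an unadjusted p under 0.05, against 8.14% of all genes, and their median log2 fold change was -0.09 beside 0.00 over all genes. The window was the one from which the 6 genes had been picked with results known, so this count describes what remained. In MOL 27 were tested, in astrocytes 37, in endothelial cells 39, in microglia 24, in OPC 18 and in NFOL 14, and none was called in any of these classes. An unadjusted p under 0.05 was seen for 4 in MOL (14.8%, against 12.01% of all genes), 3 in NFOL (21.4% against 13.4%), 4 in endothelial cells (10.3% against 8.04%), 2 in astrocytes (5.41% against 5.43%), 2 in microglia (8.33% against 11.8%) and 0 in OPC (against 4.24%). Just inside the 1.2 Mb on the side of the trio, Gm11940 had a log2 fold change of -0.47 (SE 0.16) at -1188 kb, and just outside Krt28 had 0.22 (SE 0.37). On the other side Etv4 had -0.18 (SE 0.21) at 1194 kb and Cfap97d1, the next gene tested beyond the limit, -0.42 (SE 0.37) at 1393 kb.

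Close to Cnp, the 3 testable genes that start within 100 kb besides Dnajc7 and Nkiras2 had log2 fold changes of -0.35 to 0.25 in neurons. Zfp385c, which starts at 101 kb and whose gene body reaches back to Nkiras2, had -1.02 (SE 0.35, edgeR adjusted p 0.548), with 0.379 to 2.93 CPM in intact and 0.376 to 0.701 CPM in deficient neurons, which overlapped. The 3 nearer genes included Acly, which makes cytosolic acetyl-CoA, at 28.4 CPM in intact and 25.0 CPM in deficient neurons. DESeq2 called 1 gene of the window in neurons, 1 in MOL and 0 in the other 5 classes. Over all genes DESeq2 also called more than edgeR in neurons and MOL, with the counts given at the end. The 2 genes of the window are named after their values were seen. In neurons the gene was Arl4d, a small GTPase gene, with 0.837 CPM in intact and 0.123 CPM in deficient libraries, whose lowest intact and highest deficient libraries overlapped at 0.195 and 0.324 CPM. In MOL the gene was Stat3, a transcription factor gene of cytokine signalling, with a DESeq2 log2 fold change of 0.84 (SE 0.21).

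**Figure D4:**
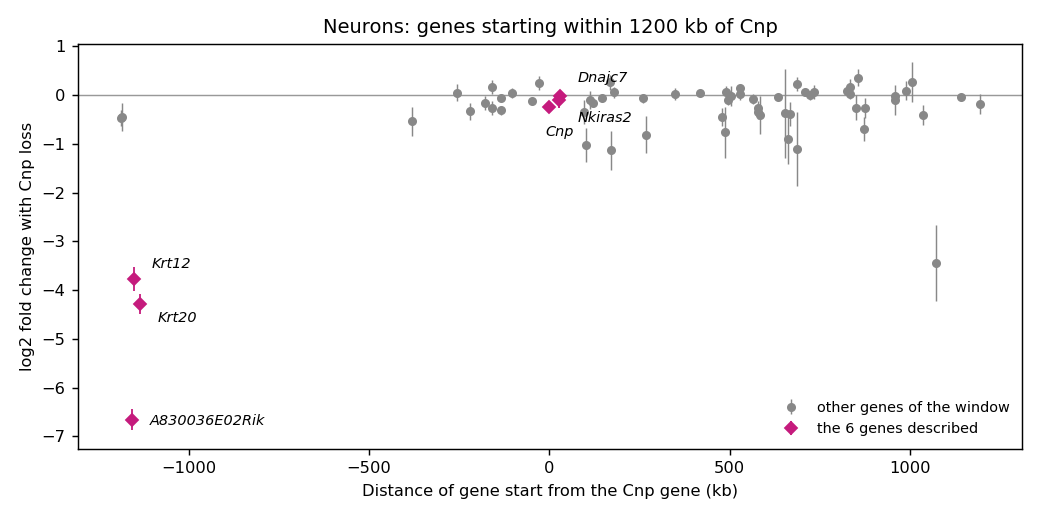
Log2 fold change with Cnp loss in neurons (vertical axis, bars are standard errors) for the genes tested that start within 1.2 Mb of the Cnp gene (horizontal axis, kb). Diamonds are the 6 genes described and circles the 60 other genes. The 3 diamonds between -1158 and -1137 kb lie at -3.78 to -6.66, those at and near 0 kb between -0.24 and -0.02, and the low circle near 1074 kb is Arl4d at -3.44.

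With 5xFAD, none of the 6 genes was called. In 28 tests of the members over classes and all nuclei, edgeR called 0, with adjusted p of at least 0.762 and 0 at an unadjusted p under 0.05, and DESeq2 also called 0. Over all genes 5xFAD called 0% in neurons, MOL, NFOL, OPC, astrocytes and endothelial cells, 0.229% in microglia and 0.00905% in all nuclei. In neurons the log2 fold change with 5xFAD was 0.02 (SE 0.20) for A830036E02Rik, 0.23 (SE 0.23) for Krt12, -0.02 (SE 0.21) for Krt20 and -0.03 (SE 0.12) for Cnp. In MOL it was -0.05 (SE 0.17) for Cnp.

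Whether the difference with Cnp loss was unlike with and without 5xFAD was asked by the interaction. In the same 28 tests edgeR called 0, with adjusted p of at least 0.896 and 0 at an unadjusted p under 0.05, and over all genes the interaction called 0% in every class. DESeq2 called 0 of them too. The interaction was 0.61 (SE 0.33) for Cnp in MOL, 1.17 (SE 0.59) for Cnp in astrocytes and 0.55 (SE 0.41) for A830036E02Rik in neurons on the log2 scale. With 5xFAD, edgeR called 0 genes of the myelin, chaperone, NF-kB and keratin lists in any class, and DESeq2 called 5 of the myelin list. An unadjusted p under 0.05 was seen for 15 of 19 myelin genes in neurons, where 11.8% of all genes had one, with a median log2 fold change of -0.55. In endothelial cells it was seen for 7 of 15, beside 5.22% of all genes, with a median of the opposite sign (0.72). In OPC it was seen for 3 of 12, beside 4.39% of all genes, with a median of -0.15. In NFOL it was seen for 1 of 18 (5.99% of all genes) and in microglia for 1 of 18 (9.38%). It was seen for 0 of 19 in MOL (3.72%) and 0 of 14 in astrocytes (4.86%). The part of free RNA, doublets and unequal cluster shares in these myelin values outside oligodendrocytes was not tested. Of the other lists 0 to 3 per class had an unadjusted p under 0.05 with 5xFAD, beside 3.72% (MOL) to 11.8% (neurons) of all genes. Those with 3 were chaperones, of 27 tested in neurons and of 27 in endothelial cells. Of NF-kB genes 10 (OPC) to 20 (neurons) were tested, with 0 or 1 per class. Keratins had 2 of 13 in neurons and 1 of 2 in endothelial cells. DESeq2 called 0 of these lists.

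Over the 8 classes of intact libraries, the genes whose mean levels followed Cnp most closely were Gpr37, a receptor of oligodendrocytes, Slc5a11, Trappc10, Ibtk and Tnfaip6, with Pearson correlations of log2(CPM + 1) of 0.981, 0.981, 0.977, 0.972 and 0.970 among 14315 genes. For Dnajc7 they were Gm27010 (0.991), Arih1 (0.980), Kat7 (0.979), Gspt1 (0.978) and Nsmce2 (0.978), and for Nkiras2 Kctd12 (0.974), Ucp2 (0.972), Anks1 (0.972), Tgfbr2 (0.962) and Tmf1 (0.960). The 8 points share libraries and depth. With WT libraries alone, 0 of the 5 genes of each list were again among the first 5.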

How the data were processed

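Single-nucleus libraries of 8 samples, 2 per genotype, were made with a 10x Genomics 3′ kit. The deposited values are UMI counts per gene and nucleus. The authors aligned reads to mm10 with Cell Ranger 6.1.2 and removed ambient transcripts with CellBender. They then filtered on detected genes and total transcripts and removed clusters of undefined identity. Gene positions are those of GENCODE on GRCm38. Cell class, cluster and sample were taken from the deposited annotation. Intron counting, strand setting and doublet treatment are not given in the sources used here, and no doublets were removed here.

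Counts were summed per library and class. Sets in which a library had fewer than 20 nuclei (pericytes) were not fitted. edgeR 4.0.16 (R 4.3.3) was run on all genes with filterByExpr, TMM scaling and the quasi-likelihood test, with terms for the 4 genotypes, and p-values were adjusted by the Benjamini-Hochberg method over all genes of a class. Cnp loss was the mean of both amyloid backgrounds. The 6 genes and the lists were chosen with earlier results of these data known, so that no test of Cnp loss is given for the 6. Other genes are named where they lie in the window, belong to a list, were called, or are among the 5 most alike in level over classes, and those named after their values were seen are marked.

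Depth was 68905044 to 82399061 UMIs per library. Exact binomial intervals (95%) and limits from 3 counts cover counting error only. The scripts were tested on simulated data. Alternatives were DESeq2 1.42.0 and its size factors, no filter, a replicate block, nuclei with at least 1000 UMIs, other windows and leaving out each library. The planned ratio of Cnp to other myelin transcripts is not reported here. Counts over the lists and whole tables, and the split of neurons by cluster, with library ranges only where a library had at least 20 nuclei, were added after seeing the data.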

Additional observations from a re-analysis of the deposited data

Results flagged for a closer look

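Of 46 sets of 4 libraries examined, 2 held a library that stood far from the other 3, with a gap above Dixon's 95% critical value for 4 samples. Chance flags about 1 in 20 such sets. In Cnp-deficient mature oligodendrocytes, Cnp-/- 5xFAD replicate 2 had 32.8 CPM of Cnp, against 23.1 to 24.0 CPM in the other 3 libraries. In Cnp-intact astrocytes, WT replicate 2 had 68.4 CPM of Cnp, against 27.9 to 33.0 CPM in the others.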

How the results depend on the processing

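Over 13 alternatives the fitted log2 fold change with Cnp loss ran from -3.44 to -3.20 for Cnp in MOL, and in neurons from -6.88 to -6.48 for A830036E02Rik, from -4.00 to -3.57 for Krt12 and from -4.38 to -4.17 for Krt20. Of the members' fold changes under these alternatives, 358 stayed within their spread of the main value and 4 moved by more. These were Krt20 in all nuclei without Cnp-/- 5xFAD replicate 1 (-4.35), Cnp in OPC, which was positive without WT replicate 2 (0.23), and Nkiras2 in MOL, which ran from -2.38 without Cnp-/- replicate 2 to 3.17 without 5xFAD replicate 1. After thinning, the deficient share of nuclei with a UMI relative to the intact one moved by more than its spread for A830036E02Rik (2.02 to 0.915%) and Krt20 (5.03 to 6.82%) in neurons. Tests of 5xFAD and of the interaction called 0 members in all 13 alternatives.

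Genes near Cnp called with Cnp loss numbered 0 in every class. DESeq2 called 1 in neurons (Arl4d), 1 in MOL (Stat3) and 1 in all nuclei (Arl4d). Without the filter 2 were called in MOL (Stat3, Arl4d), 2 in astrocytes (Krt10, Stat3) and 1 in OPC (Ramp2), and with nuclei of at least 1000 UMIs 1 in MOL (Stat3). Over all genes, 4 were called in neurons, against 177 by DESeq2, 3 with the replicate block and 2 to 5 when a library was left out (2 without 5xFAD replicate 2). In MOL 67 were called, against 544 without the filter, 512 by DESeq2, 23 with the replicate block, 103 with nuclei of at least 1000 UMIs and 2 to 262 when a library was left out.

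Myelin genes called in NFOL were 6, but 10 without the filter, 3 with the replicate block and 0 to 14 without a library. In microglia they were 6, but 11 without the filter, 10 by DESeq2, 1 with the replicate block and 0 to 10 without a library. In the other 5 classes they were 0, with 7 without the filter, 2 by DESeq2 and 0 to 1 without a library. With 5xFAD they were 0, with 5 without the filter, 5 by DESeq2 and 0 to 2 without a library. Chaperone genes with Cnp loss were 0, with 8 without the filter and 5 by DESeq2, and with 5xFAD 0, with 1 without the filter and 0 to 1 without a library. NF-kB genes with Cnp loss were 0, with 2 without the filter, 1 by DESeq2 and 0 to 2 without a library. Keratin genes with Cnp loss were 0, with 1 without the filter. The cause of these shifts was not tested.

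Of the 5 genes most like Cnp, Dnajc7 and Nkiras2, Spearman correlation found 0, 1 and 2 again and WT libraries alone 0, 0 and 0. The main fit did not pair libraries by replicate number. Deviations of the replicate 1 libraries from their genotype means correlated at -0.26 to 0.28 in neurons and at -0.27 to 0.34 over all nuclei. The replicate block changed no count other than those given. The 2 libraries per genotype and the few Cnp UMIs outside neurons and MOL limit what could be detected.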
